A study of Mus musculus with 6 samples.

Results

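Hox genes encode homeodomain transcription factors that lie in 4 clusters, Hoxa to Hoxd, and are numbered 1 to 13 by paralogue group. In the embryo they are switched on in order along each cluster, low numbers towards the head and high numbers towards the tail, and adult skin fibroblasts and endothelial cells keep part of that positional pattern. Several members have been studied in endothelium, where Hoxd3 and Hoxb3 are known for promoting vessel growth and Hoxa5 and Hoxd10 for restraining it.

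Every gene with a probe set annotated to it alone and a symbol of the form Hoxa, Hoxb, Hoxc or Hoxd plus a number was taken, with no filter on low values. This gave 33 of the 39 mouse Hox genes, among 18193 genes in all, through 48 probe sets. The other 6 were not analysed here as members. A gene with several probe sets is represented by the one with the highest mean over the 6 arrays.

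The arrays held RNA of cultured lymphatic endothelial cells (LEC). The 3 tumour LEC arrays came from C57BL/6 mice bearing tumours of T241/VEGF-C/GFP, the mouse fibrosarcoma line T241 with VEGF-C, a lymphatic growth factor, and green fluorescent protein. The 3 normal dermal LEC arrays came from the tail skin of female C57BL/6 mice aged 8 weeks. The labels do not state where on the body the tumours grew, so whether the anatomical site differs between the groups is not known, and site and tumour cannot be told apart. All cells grew in EGM-2 medium on gelatin, and the treatment text describes magnetic selection with an antibody to LYVE-1, a hyaluronan receptor of lymphatic vessels, for both. Tumour cells are named in the titles of these tumour arrays, but LEC in their source descriptions, which were followed. Nothing in the labels says whether replicates were separate animals or cultures, so the p-values measure the spread between these arrays, which may be technical.

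Values are log2 expression, and a gene was called above background on an array when it exceeded the highest of 27 control probe sets for bacterial RNA there, a limit of 3.40 to 3.71. Of 6 lymphatic markers measured, 5 were above background on every array, and Lyve1 read between 13.65 and 14.91. The summed signal of 14 fibroblast markers, as log2, was 12.91 to 15.38 on the normal arrays, highest in normal replicate 1, and 7.93 to 9.56 on the tumour arrays. The summed signal of 10 endothelial markers was 12.83 to 13.90 on the normal arrays, lowest in normal replicate 1, and 14.30 to 14.69 on the tumour arrays. Of 10 leukocyte markers 6 to 8 were above background per array, of 6 mural markers 2 to 3, and of 6 keratinocyte markers 2. The latter were Krt5, at 3.73 to 4.46, and Krt10, at 6.76 to 7.17. Krt14, a defining keratin of basal epidermis, was at background throughout. Fewer cells of a type and less RNA per cell cannot be told apart in such samples.

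Signal came from a few stretches of the clusters, mainly Hoxb3 to Hoxb6 and Hoxd8 to Hoxd10, with Hoxa5, Hoxa7, Hoxa9 and Hoxc6. Of the 33 Hox genes, 13 were above background on at least 1 array, 9 of them on all 6, and 20 were at background on every array, against 61.2% of all genes above background on 1 array or more. The 9 were Hoxa5, Hoxa7, Hoxa9, Hoxb3, Hoxb4, Hoxc6, Hoxd8, Hoxd9 and Hoxd10. Hoxb5 and Hoxb6 were above background on all tumour arrays and on 1 and 2 normal arrays, Hoxb13 on 1 array of each group, and Hoxa2 on 1 normal array. Of the middle groups 4 to 8, 7 of 12 genes gave signal, against 2 of 7 in groups 1 to 3 and 4 of 14 in groups 9 to 13.

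**Figure D1:**
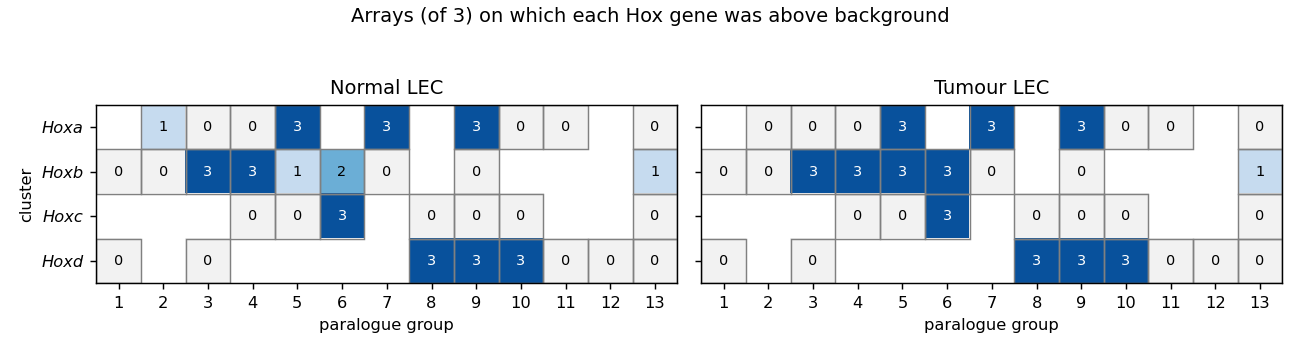
Number of arrays, of 3, on which each Hox gene was above background in normal LEC (left) and tumour LEC (right), by cluster (rows) and paralogue group 1 to 13 (columns). Blank positions hold no gene or none measured alone; the blocks Hoxb3 to Hoxb6 and Hoxd8 to Hoxd10 carry signal in tumour LEC, and the 2 maps differ at Hoxa2, Hoxb5 and Hoxb6.

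Hoxa showed a step towards the 5 prime end, with Hoxa9 above background on all 6 arrays and Hoxa10, Hoxa11 and Hoxa13 on none. The Hoxd cluster showed one too. There Hoxd8, Hoxd9 and Hoxd10 were above background on all 6 arrays, and the next genes, Hoxd11, Hoxd12 and Hoxd13, on none. The sequences before the starts of the genes on both sides of that step are shown, 5 prime to 3 prime, as the 250 bases upstream in RefSeq (GRCm38.p6, plus strand), at chr2:74704365-74704614 for Hoxd8, chr2:74697513-74697762 for Hoxd9, chr2:74691641-74691890 for Hoxd10 and chr2:74682073-74682322 for Hoxd11, for which the start nearest Hoxd10 was taken. Capitals mark matches on either strand to TATAAA (bound by the general factor TBP), CCAAT (the core site of factor NF-Y), TGATNNAT (a joint site of Pbx and Hox proteins) or TTTATNG (a site of Cdx and posterior Hox proteins).
Hoxd8: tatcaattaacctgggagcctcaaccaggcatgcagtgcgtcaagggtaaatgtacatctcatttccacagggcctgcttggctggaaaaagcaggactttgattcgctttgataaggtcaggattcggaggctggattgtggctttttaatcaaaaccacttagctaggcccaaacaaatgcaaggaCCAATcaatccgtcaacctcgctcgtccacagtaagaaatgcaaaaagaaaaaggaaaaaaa
Hoxd9: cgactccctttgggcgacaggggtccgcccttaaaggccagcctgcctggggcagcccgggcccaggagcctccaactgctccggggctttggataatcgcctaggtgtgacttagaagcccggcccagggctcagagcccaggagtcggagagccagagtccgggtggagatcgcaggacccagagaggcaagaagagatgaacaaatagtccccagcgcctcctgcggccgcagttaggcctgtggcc
Hoxd10: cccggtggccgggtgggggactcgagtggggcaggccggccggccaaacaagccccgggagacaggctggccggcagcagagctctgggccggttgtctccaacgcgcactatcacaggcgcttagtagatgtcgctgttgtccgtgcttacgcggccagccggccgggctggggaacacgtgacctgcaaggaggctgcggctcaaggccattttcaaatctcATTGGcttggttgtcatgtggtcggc
Hoxd11: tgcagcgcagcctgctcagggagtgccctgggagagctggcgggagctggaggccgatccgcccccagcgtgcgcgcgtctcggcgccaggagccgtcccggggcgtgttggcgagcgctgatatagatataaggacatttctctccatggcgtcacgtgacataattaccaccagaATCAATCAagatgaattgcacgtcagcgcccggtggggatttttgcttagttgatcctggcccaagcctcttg
Hoxd8 and Hoxd10 each held a CCAAT, Hoxd11 a TGATNNAT on the minus strand, and Hoxd9 none of the motifs. TTTATNG can hold the reverse of TATAAA, so a stretch may match both, and none did here. Promoter sequences were found for 19 of the 33 genes, with 21 starts. CCAAT was found at 11 of these 21 starts and at 33.9% of 32841 starts in the table, TGATNNAT at 3 and at 7.69%, TATAAA at 2 and at 12.4%, and TTTATNG at 0 and at 9.81%. CCAAT was present at 4 of the 8 starts of genes above background and at 7 of the 13 starts of genes at background, a similar share of both. The median GC content was 56.4% for the former and 59.2% for the latter, against 52.4% for all starts. A match describes letters only, and one that is missing here says nothing about the factor.

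None of the Hox genes passed when the groups were compared. With the fit over all 18193 genes (limma, Benjamini-Hochberg adjusted p under 0.05, two-sided), 10 genes passed, 0.055% of those tested, and 0 of the 33 Hox genes did. The smallest adjusted p among them was 0.151, for Hoxb5. At an unadjusted p under 0.05, 5 Hox genes were higher in tumour LEC, namely Hoxa5, Hoxb3, Hoxb4, Hoxb5 and Hoxb6, and 0 were lower, where 5.37% of all genes were higher and 11.9% differed either way. The median difference, tumour minus normal, was 0.07 log2 units over the 33 Hox genes and 0.05 over all genes. By cluster the median was 0.12 for Hoxa (9 genes), 0.28 for Hoxb (9), 0.05 for Hoxc (7) and 0.10 for Hoxd (8). By position it was 0.05 for groups 1 to 3, 0.41 for groups 4 to 8 and 0.07 for groups 9 to 13. Most of these medians fell on genes at background on all arrays, such as Hoxa13 for Hoxa, Hoxb9 for Hoxb and Hoxc4 for Hoxc. That of groups 4 to 8 lay between Hoxa4, at background, and Hoxa7. The medians therefore depend on how many genes of a set gave signal. In Hoxd the 3 genes with signal differed by 0.68 to 1.25. Without tumour replicate 3 the median was 0.031 over the 33 genes, 0.035 for Hoxa, 0.022 for Hoxc, 0.023 for groups 1 to 3 and 0.024 for groups 9 to 13. Without tumour replicate 2 it was 0.063 for Hoxa, 0.066 for Hoxb and 0.15 for Hoxd. By paralogue group, the median was 1.18 over the 3 genes of group 5, the value of Hoxa5, with Hoxc5 at background. It was 0.98 over the 2 genes of group 6, midway between Hoxb6 at 1.95 and Hoxc6 at 0.02. In the other groups it was between -0.27 (group 2) and 0.44 (group 8).

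The tumour arrays lay above all normal arrays without overlap for 24 Hox genes, and for 38.2% of all genes. They lay below them for 0 Hox genes and for 8.27% of all genes, and the difference was above 0 for 29 Hox genes and 64.8% of all genes. With each array centred on its median it was above 0 for 20 Hox genes. Most of these were genes without signal. Of the 20 Hox genes at background on every array 18 read higher on all tumour arrays, as did 76.6% of all genes at background. The background limit was 3.48 to 3.71 on the tumour arrays and 3.40 to 3.47 on the normal arrays. Their differences ran from -0.10 to 0.28 and are not described further. Of the 13 Hox genes with signal somewhere, 6 were higher on all tumour arrays and 0 were lower, against 13.8% and 13.4% of genes above background on 1 array or more. Since those 13 were picked by their signal, these counts are a description. At least 2-fold differences were seen for 5 Hox genes towards tumour LEC and for 1 towards normal LEC, against 2.73% and 4.82% of all genes.

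**Figure D2:**
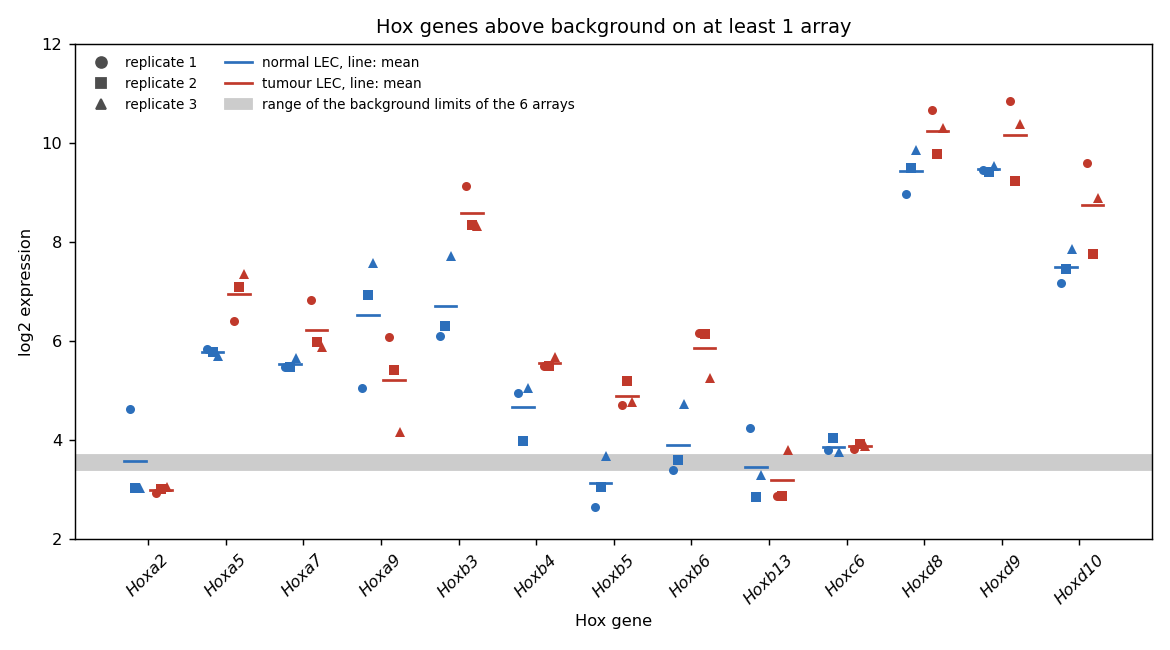
Log2 expression of the 13 Hox genes above background on at least 1 array, with each array as a point, the group mean as a line and the range of the background limits (3.40 to 3.71) in grey. The tumour points of Hoxa5, Hoxa7, Hoxb3, Hoxb4, Hoxb5 and Hoxb6 lie above all normal points, and those of the Hoxd genes and Hoxa9 overlap them. Levels of different genes come from different probe sets and are not comparable.

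Within the Hoxb block, Hoxb3, Hoxb5 and Hoxb6 gave the largest differences among the Hox genes. Hoxb3, a gene of the anterior class linked to capillary formation, read 9.13, 8.34 and 8.32 in tumour replicates 1, 2 and 3 and 6.10, 6.30 and 7.73 in normal replicates 1, 2 and 3. All tumour values lay above all normal ones, with normal replicate 3 nearest to them. The difference was 1.89 log2 units or 3.70-fold (SE 0.51, 95% interval 0.58 to 3.20, limma adjusted p = 0.279). Its other probe set was close to the background, at 3.91 to 4.42 in tumour LEC and 3.45 to 3.90 in normal LEC, and differed by 0.39, so the mean of both sets gave 1.14.

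Hoxb4, known for expanding blood stem cells, read 5.50, 5.50 and 5.69 on the tumour arrays and 4.95, 3.99 and 5.06 on the normal arrays. The groups did not overlap, and the low value of normal replicate 2 set much of the spread. The difference was 0.89 (SE 0.31, 95% interval 0.11 to 1.68, limma adjusted p = 0.375). It was 0.56 without normal replicate 2, and 0.48 with the mean of its probe sets, of which the other was at background throughout.

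Hoxb5, known as an activator of Kdr, the main receptor for VEGF-A on endothelial cells, read 4.71, 5.20 and 4.78 on the tumour arrays and 2.65, 3.06 and 3.69 on the normal arrays. Normal replicates 1 and 2 were at background, and the gap between the groups, 1.02 log2 units, was the widest of any Hox gene. The difference was 1.76 (SE 0.30, 95% interval 0.99 to 2.54, limma adjusted p = 0.151). With the values at background raised to the limit of their array it was 1.38, or 2.59-fold.

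Hoxb6, a neighbour of Hoxb5 that acts in trunk patterning, read 6.17, 6.14 and 5.26 on the tumour arrays and 3.40, 3.59 and 4.74 on the normal arrays, of which the first was at background. The groups did not overlap, and tumour replicate 3 and normal replicate 3 lay nearest to each other. The difference was 1.95 (SE 0.46, 95% interval 0.78 to 3.12, limma adjusted p = 0.233), or 3.85-fold with the value at background raised to its limit.

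Hoxb1 and Hoxb2 on one side of this block and Hoxb7 and Hoxb9 on the other were at background on all arrays, by probe sets of their own. A probe set shared by Hoxb8 and Hoxb7 was above background everywhere, at 4.64, 5.14 and 4.90 in tumour LEC and 4.55, 4.56 and 4.56 in normal LEC. It cannot be assigned to either gene, and Hoxb7 was at background by its own probe set. Whether the shared probe set read transcripts of these genes was not tested.

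Normal replicate 1, where fibroblast markers were highest and endothelial markers lowest, had the lowest values of Hoxb3, Hoxb5 and Hoxb6. Among the normal arrays all 4 genes of the block were highest in normal replicate 3, which had the highest endothelial signal of the normal arrays. That was not particular to the block. Normal replicate 3 was the highest normal array for 9 of the 13 genes with signal, among them Hoxa9, which was lower in tumour LEC. Without normal replicate 1 the differences were 1.58 for Hoxb3, 1.04 for Hoxb4, 1.52 for Hoxb5 and 1.69 for Hoxb6. Leaving out that array did not close the gap in fibroblast marker signal. Its lowest value among the normal arrays was 12.91, in normal replicate 2, while the tumour arrays reached 9.56 at most. The part of cell composition in the differences of these 4 genes was not tested.

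**Figure D3:**
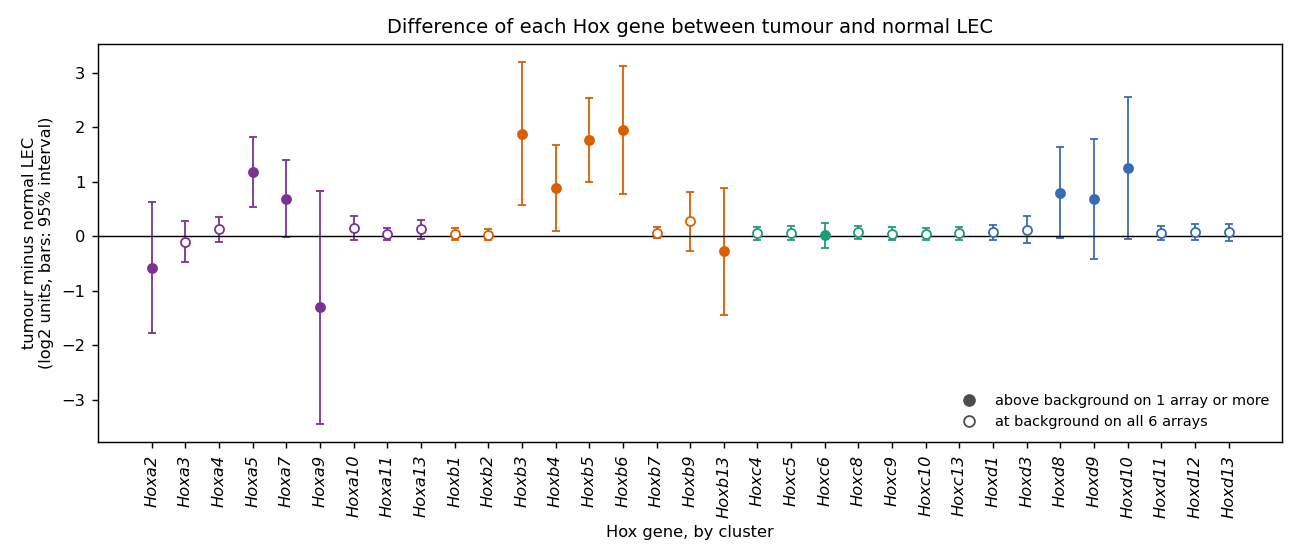
Difference of each of the 33 Hox genes between tumour and normal LEC in log2 units, with its 95% interval from the fit over all genes, ordered by cluster (colour) and paralogue group. Filled points are genes above background on 1 array or more; intervals of Hoxa5, Hoxb3, Hoxb4, Hoxb5 and Hoxb6 lie above 0 before adjustment, and no gene passed after it.

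In the Hoxa cluster Hoxa5 and Hoxa7 read higher in tumour LEC, and Hoxa9 had the opposite sign. Hoxa5, a gene known for stabilising endothelial junctions and restraining vessel growth, read 6.42, 7.10 and 7.35 on the tumour arrays and 5.85, 5.78 and 5.71 on the normal arrays. The normal arrays were tight, and all tumour values lay above them. The difference was 1.18 or 2.26-fold (SE 0.25, 95% interval 0.53 to 1.82, limma adjusted p = 0.194). Its name in the array design marks this probe set as prone to matching other transcripts. The other Hoxa5 probe set read 5.02, 5.12 and 4.00 on the tumour arrays and 3.62, 3.88 and 4.02 on the normal arrays, so that the groups overlapped there, and it differed by 0.87.

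Hoxa7 read 6.83, 5.98 and 5.89 on the tumour arrays and 5.48, 5.48 and 5.66 on the normal arrays. The groups did not overlap, and tumour replicate 1 stood apart from the other tumour arrays. The difference was 0.69 (SE 0.28, 95% interval -0.01 to 1.40, limma adjusted p = 0.424), and 0.39 without tumour replicate 1.

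Hoxa9, known in adult endothelium as a regulator of its activation and of Ephb4, read 6.09, 5.41 and 4.16 on the tumour arrays and 5.06, 6.94 and 7.58 on the normal arrays. The groups overlapped because normal replicate 1 read lower than 2 of the tumour arrays. The difference was -1.30 (SE 0.84, 95% interval -3.45 to 0.84, limma adjusted p = 0.525). It was -2.04 without normal replicate 1 and -0.77 without tumour replicate 3 or, to -0.78, without normal replicate 3. Its other probe set was at background on every array, and the mean of both sets gave -0.64.

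Hoxa2, which patterns the second pharyngeal arch, was above background in normal replicate 1 only, at 4.63, and read 2.93 to 3.05 on the other arrays. Its difference of -0.57 (SE 0.47, limma adjusted p = 0.535) was -0.05 without that array. Hoxa3, Hoxa4, Hoxa10, Hoxa11 and Hoxa13 were at background on all arrays.

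The Hoxd block overlapped between the groups, and each gene was highest in tumour replicate 1. Hoxd8, reported in lymphatic endothelium as a target of Prox1, read 10.67, 9.77 and 10.30 on the tumour arrays and 8.97, 9.50 and 9.86 on the normal arrays. Tumour replicate 2 lay below normal replicate 3, and the difference was 0.80 (SE 0.33, 95% interval -0.03 to 1.64, limma adjusted p = 0.431). Its other probe set overlapped too and differed by 0.83.

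Hoxd9 read 10.86, 9.24 and 10.38 on the tumour arrays and 9.46, 9.42 and 9.55 on the normal arrays. Tumour replicate 2 was below every normal array, and the difference was 0.68 (SE 0.43, 95% interval -0.41 to 1.78, limma adjusted p = 0.523). Without tumour replicate 2 it was 1.14, and without tumour replicate 1 it was 0.33.

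Hoxd10, known for holding endothelium in a quiescent state, read 9.59, 7.75 and 8.88 on the tumour arrays and 7.17, 7.45 and 7.86 on the normal arrays. Tumour replicate 2 again lay within the normal range, and the difference was 1.25 or 2.37-fold (SE 0.51, 95% interval -0.06 to 2.55, limma adjusted p = 0.432). Without tumour replicate 1 it was 0.82. Tumour replicate 1 was the highest of the tumour arrays for 7 of the 13 genes with signal. For the other 6 it was the lowest of them or level with the lowest. It also had the highest signal of the leukocyte markers, 12.89 as the log2 of their sum, against 10.88 to 12.24 on the other arrays. Its endothelial marker signal was the highest of the 6 arrays too, at 14.69, against 14.30 and 14.44 on the other tumour arrays. The part of either in these values was not tested. Hoxd1 and Hoxd3 were at background on every array, as were 2 probe sets shared by Hoxd3 and Hoxd4.

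The Hoxc cluster was nearly without signal. Hoxc6 lay just above the limit, at 3.83, 3.92 and 3.89 on the tumour arrays and 3.80, 4.04 and 3.75 on the normal arrays. The groups overlapped, with a difference of 0.02 (SE 0.09, 95% interval -0.22 to 0.25, limma adjusted p = 0.918) that turned to -0.049 with each array centred on its median. Its 2 other probe sets, and Hoxc4, Hoxc5, Hoxc8, Hoxc9, Hoxc10 and Hoxc13, were at background on all arrays.

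The most posterior genes gave little signal in either group, the normal cells from tail skin included. Of the 7 genes of groups 11 to 13, 6 were at background throughout. Hoxb13, whose loss in mice lengthens the tail, read 2.88, 2.88 and 3.81 on the tumour arrays and 4.25, 2.86 and 3.30 on the normal arrays. It exceeded the limit in tumour replicate 3 and in normal replicate 1 only, and its difference was -0.28 (SE 0.46, limma adjusted p = 0.687).

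Hox proteins bind DNA together with TALE homeodomain cofactors, the Pbx, Meis and Pknox proteins. Of 9 such genes 8 were measured, and 0 passed in either direction, with a median difference of -0.01. Meis1, a Hox partner in blood and mesenchymal cells, read 4.23, 3.24 and 3.64 on the tumour arrays and 8.71, 6.35 and 6.18 on the normal arrays. The groups did not overlap, with 2 tumour arrays at background, and the difference was -3.38 (SE 0.77, 95% interval -5.34 to -1.41, limma adjusted p = 0.217). Meis1 was highest in normal replicate 1, as the fibroblast markers were, and the part of fibroblast RNA in its difference was not tested. Pbx2 differed by -0.40 (SE 0.32), Pbx3 by 0.23 (SE 0.11) and Meis3 by 0.16 (SE 0.13), none past the threshold.

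Polycomb and trithorax proteins keep Hox genes silent or active through histone marks. Of 27 listed regulators 26 were measured, 0 passed, 19 differences were negative, and the median was -0.12. Among the 24 above background on 1 array or more 18 were negative, as were 5929 of all 11130 such genes. Ezh2, the histone methyltransferase of Polycomb complex PRC2, read 8.57, 10.05 and 8.65 on the tumour arrays and 10.40, 10.48 and 10.06 on the normal arrays. All tumour values lay below the normal ones, with tumour replicate 2 almost level with normal replicate 3, and the difference was -1.22 (SE 0.44, limma adjusted p = 0.392). Its paralogue Ezh1 had the opposite sign, at 0.77 (SE 0.33, limma adjusted p = 0.447). Kdm6b, a demethylase that removes the mark Ezh2 sets, differed by -1.23 (SE 0.37, limma adjusted p = 0.320), again with the tumour arrays below the normal ones. Bmi1, a PRC1 subunit, differed by 0.27 (SE 0.20).

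Of 8 axial regulators 7 were measured and 0 passed, with a median of 0.05. Cdx2 and Cdx4, which switch on posterior Hox genes in the embryo, were at background on all arrays. Egr2, a hindbrain regulator of Hox genes and an immediate early gene elsewhere, read 3.99, 3.60 and 4.25 on the tumour arrays and 7.99, 5.33 and 5.61 on the normal arrays, highest in normal replicate 1, and differed by -2.36 (SE 0.77, limma adjusted p = 0.347). Gmnn, which encodes the replication inhibitor geminin, differed by -1.07 (SE 0.60), with groups that overlapped.

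Of 10 listed RNAs made between or antisense to Hox genes, 3 were measured, 0 passed, and the median was 0.09. Hoxd3os1, antisense to Hoxd3, read 7.08, 6.47 and 6.63 on the tumour arrays and 6.32, 6.45 and 7.15 on the normal arrays, while Hoxd3 was at background. The groups overlapped, and the difference was 0.09 (SE 0.28, limma adjusted p = 0.841). Hoxb5os was at background on all arrays. The strand of overlapping transcripts rests on the probe annotation.

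Of 13 genes that flank the clusters 12 were measured and 0 passed, with a median of 0.05. Skap2, an adaptor protein gene beside the anterior end of Hoxa, read 11.06, 10.41 and 10.32 on the tumour arrays and 9.97, 9.75 and 9.76 on the normal arrays, without overlap, and differed by 0.77 (SE 0.22, limma adjusted p = 0.297). Lnpk, an endoplasmic reticulum gene on the posterior side of Hoxd, read 7.27, 7.64 and 6.97 on the tumour arrays and 8.84, 8.75 and 8.18 on the normal arrays. It differed by -1.30 (SE 0.25, limma adjusted p = 0.175), the sign opposite to that of Hoxd8, Hoxd9 and Hoxd10. Hibadh differed by 0.33 (SE 0.11) and Cbx5, a heterochromatin protein gene beside Hoxc, by -0.94 (SE 0.30), and neither passed.

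Of 27 other homeobox and T-box genes that mark position in limb, trunk or skin, 24 were measured and 0 passed, with a median of 0.03. The groups did not overlap for 11 genes higher in tumour LEC, 9 of which were at background on every array, and for 7 genes lower, all among the 12 with signal. Over all genes these shares were 38.2% and 8.27%, and among genes above background on 1 array or more 13.8% and 13.4%. Meox1, a homeobox gene of somites that is also expressed in endothelium, read 6.98, 6.80 and 6.21 on the tumour arrays and 3.33, 4.04 and 4.22 on the normal arrays. All tumour values were far above the normal ones, of which that of normal replicate 1 was at background. The difference was 2.80 (SE 0.32, 95% interval 1.99 to 3.62, limma adjusted p = 0.106), or 2.78 with the value at background raised to its limit. Hhex, a homeobox gene of endothelial and blood progenitors, differed by 0.95 (SE 0.45).

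Prrx1, a homeobox gene of limb and dermal mesenchyme, read 4.75, 3.07 and 4.80 on the tumour arrays and 11.88, 10.06 and 9.64 on the normal arrays. Its difference was -6.32 (SE 0.79, limma adjusted p = 0.114). Tumour replicate 2 was at background, and with its value raised to the limit the difference was -6.17. Prrx2 was at background on all tumour arrays, read 8.01, 4.87 and 6.80 on the normal arrays, so that tumour LEC were lower by at least 7.93-fold (limma adjusted p = 0.191). Both were highest in normal replicate 1, as the fibroblast markers were, and fibroblast markers such as Pdgfra, at 11.75, 9.48 and 9.13 on the normal arrays and 4.66 to 5.74 on the tumour arrays, differed in the same direction. The part of fibroblast RNA in these differences was not tested.

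**Figure D4:**
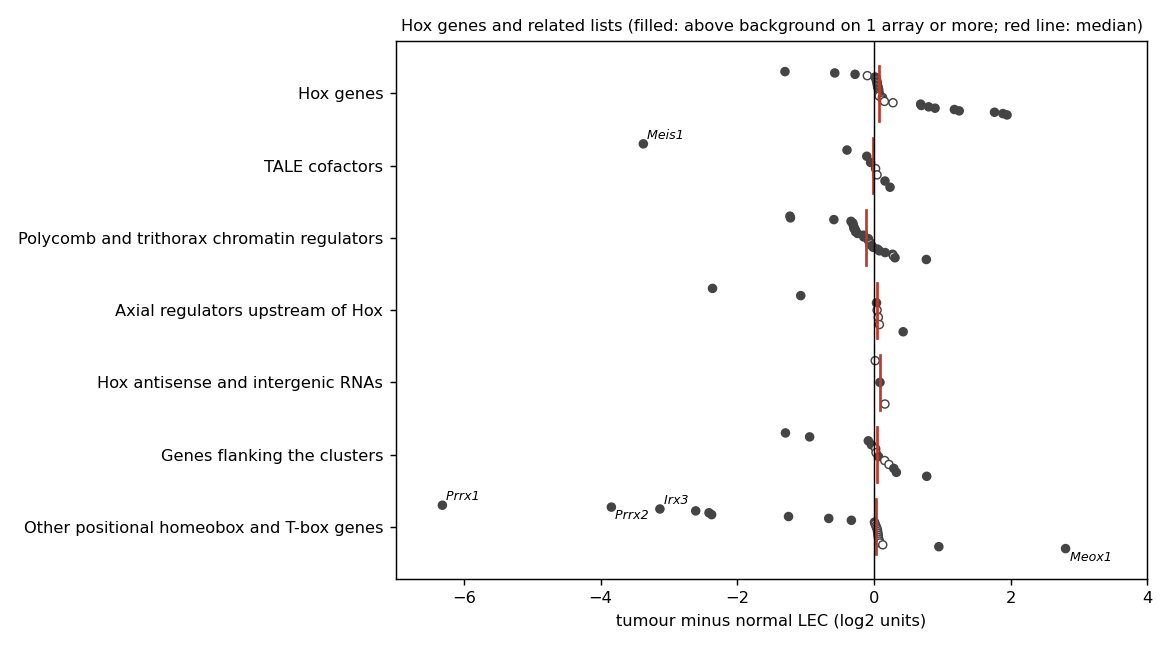
Difference between tumour and normal LEC in log2 units for each measured Hox gene and each measured member of 6 related lists, with filled points for genes above background on 1 array or more and a red line for the median of each list. The medians of the 6 lists lie between -0.12 and 0.09; Meis1, Prrx1, Prrx2, Irx3 and Meox1 are labelled as the genes farthest from 0.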

How the data were processed

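The deposited values are log2 expression for 45101 probe sets on 6 arrays. Per the submitters' processing notes the authors used RMA and GCRMA, with no version or order given, and the sources do not say which one these values come from. Per the labels' protocols, 50 ng of RNA per array went through a 2-cycle labelling kit. Dim probe sets sit near a floor in such values, which limits what the differences of genes at background can show.

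Gene names come from the platform annotation in GEO, with symbols checked by Entrez identifier against a RefSeq gene table (GRCm38.p6). That annotation gives a single gene for 34945 probe sets, several for 932 and no gene for 9160, and 64 are controls. All 48 Hox probe sets were kept. The members and lists were chosen with earlier results of these data known.

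The brightest probe set of each gene was fitted with limma 3.58.1 in R 4.3.3 (lmFit, eBayes, prior of 1.08 degrees of freedom), without a filter, and p-values were adjusted over all 18193 genes. Fold changes against a group at background are lower bounds, with values raised to each array's limit, a step added after seeing the data. With 3 arrays against 3, an exact permutation test cannot give a p under 0.1, and none was run. Every Hox gene above background on 1 array or more is given by array. Of each related list, members past the threshold or else up to 2 per direction with the smallest p are named. Of each marker list the first 2 genes are named, and Krt10 besides. Those not named in the text above are Prox1 at 8.39 and 7.99 (tumour and normal mean), Cdh5 at 11.60 and 10.59, Pecam1 at 8.51 and 7.07, Col1a2 at 3.18 and 12.56, Ptprc at 4.04 and 3.11, Cd68 at 7.87 and 8.86, Acta2 at 11.92 and 13.02 and Rgs5 at 2.69 and 2.61. The means of Krt5 were 4.03 and 3.78. The fit was tested on simulated data for 18193 genes, where 40%, 62%, 92% and 100% of genes shifted by 1, 2, 4 and 8 log2 units were called and 5 of 152 calls were false. The shifted genes were drawn from all genes, 7063 of which were at background on every array. These shares therefore need not hold for the Hox genes with signal. The alternatives were other filters and normalizations, another variance model, array weights, other probe set rules, the replicate number as a block and leaving out each array. The number of arrays limits the precision.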

Additional observations from a re-analysis of the deposited data

How the results depend on the processing

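No Hox gene passed under any of the 15 alternatives, where the smallest adjusted p among them ranged from 0.0923 (40th percentile filter) to 0.383 (without tumour replicate 3), by limma. Of the 13 genes with signal 11 kept the sign of their difference in each of the 15 or 16 alternatives that held the gene. Hoxa2, Hoxb5, Hoxb13 and Hoxc6 did not pass the 60th percentile filter, and Hoxb6 has no probe set left without those ending in x, s or a. Hoxc6 turned to -0.049 with median centring and ranged from -0.040 to 0.11 with 1 array left out, below 0 without normal replicate 1, normal replicate 3 or tumour replicate 2. Hoxb13 ranged from -0.59 to 0.11, above 0 without normal replicate 1. The cause was not tested. The 13 genes above background became 10 with a fixed limit of 5.

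Over all genes 10 passed. The count was 28 with the 40th percentile filter and 97 with the 60th, which test fewer genes, 4 with quantile normalization, 48 with an intensity trend and robust variance, 3 with array weights (a fit that stopped before full convergence), 6 with the mean of probe sets, and 3 to 50 with 1 array left out, the 50 without normal replicate 1. With the replicate number as a block it was 0 by limma, and 0 Hox genes passed, with 5 of them at an unadjusted p under 0.05. Same-numbered arrays correlated at 0.19, 0.32 and -0.004 in their deviations from the group means, and arrays of unlike number at -0.36 to 0.13. The labels do not call same-numbered arrays pairs, and the main fit did not take them as such.

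The filters remove the dimmest genes. With the 40th percentile filter, which left 20 Hox genes, the median was 0.22, and 1.33 for Hoxb, 0.68 for Hoxd, 0.013 for groups 1 to 3, 0.80 for groups 4 to 8 and 0.15 for groups 9 to 13. With the 60th, which left 9, it was 0.89, and 0.69 for Hoxa, 1.89 for Hoxb, 0.80 for Hoxd, 1.89 for groups 1 to 3, 0.89 for groups 4 to 8 and 0.68 for groups 9 to 13. With quantile normalization it was 0.016, and 0.058 for Hoxa, 0.0047 for Hoxc, 0.0057 for groups 1 to 3 and 0.012 for groups 9 to 13. With median centring it was 0.0068, and 0.060 for Hoxa, -0.013 for Hoxc, -0.018 for groups 1 to 3 and 0.0018 for groups 9 to 13, and 20 of 33 differences were above 0 in place of 29. Hoxa gave 0.064 with array weights and 0.077 with the mean of probe sets. Groups 4 to 8 gave 0.29 with the mean of probe sets and 0.098 without probe sets ending in x, s or a. With 1 array left out the median ranged from 0.031 to 0.084 over the Hox genes, and from 0.035 to 0.17 for Hoxa, 0.066 to 0.40 for Hoxb, 0.022 to 0.067 for Hoxc, 0.082 to 0.15 for Hoxd, 0.023 to 0.058 for groups 1 to 3, 0.28 to 0.49 for groups 4 to 8 and 0.024 to 0.086 for groups 9 to 13.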
